A study of Mus musculus with 16 samples.

Results

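The 9 genes described here encode the pumps, the store protein and the release channels that set the calcium level of a cell: Atp2a2, Atp2a3, Atp2b1, Atp2b2, Atp2b3, Atp2b4, Casq2, Ryr2 and Itpr1. They were taken by symbol from the 43280 gene symbols counted in each library, and all 9 were found and passed the filter on low counts. The set was chosen by the lower OIR than control levels of Atp2a3 and Casq2 at P14, so the P14 values of OIR against control are given as a description without a test. The rule names no value at the other ages.

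Calcium leaves the cytosol by several routes. The SERCA pumps (Atp2a genes) carry it into the endoplasmic reticulum, the PMCA pumps (Atp2b genes) push it out across the plasma membrane, calsequestrin binds it inside the store, and ryanodine and inositol trisphosphate receptors let it out again. In rodent retina the PMCA pumps are spread unevenly over photoreceptors, bipolar cells and inner neurons, and photoreceptor terminals rely on them to clear the calcium that drives transmitter release.

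Retinas of wild-type C57BL/6J mice were sequenced as whole tissue on postnatal day 14, 17 or 30 (named P14, P17, P30). Oxygen-induced retinopathy (OIR) is a model in which high oxygen halts and prunes the growing retinal vessels of mouse pups, and a later move to room air makes the poorly perfused retina hypoxic. The OIR groups breathed 75% oxygen between days 7 and 12 and 21% afterwards, and the age-matched control groups breathed 21% throughout. There were 2 libraries for each P14 group and 3 for each group at the later ages, 16 in all. The labels do not say whether libraries of a group came from separate animals, so p-values measure the spread between these libraries. That spread may be technical, although sex-linked genes, given below, told libraries apart within control at P14 and OIR at P30. Because RNA came from whole retina, fewer cells of a type and less RNA per cell cannot be told apart.

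Libraries held 26077663 to 41716971 counted reads. The tissue label was checked on rod markers, and all 8 were found in every group and summed to 38910 CPM (reads scaled to a common library total) or more in each library. Lens genes, markers of a neighbouring tissue, took 6.00% (95% Wilson interval 5.99 to 6.00) and 8.25% (8.24 to 8.26) of counts in replicates 2 and 1 of OIR at P17. They took at most 0.625% (0.622 to 0.628) in the other P14 and P17 libraries and 3.29% (3.28 to 3.29) or more in every P30 library. Xist, an RNA made by the silenced X chromosome of female cells, stood at 114 to 158 CPM in the 3 OIR libraries at P17. These held at most 1 read of the Y-linked Ddx3y, which stood at 25.8 to 33.3 CPM in the P17 controls. Within P17, OIR and the sex-linked difference therefore cannot be told apart. Xist was also high in replicate 2 of control at P14 (913 CPM) and in replicate 2 of OIR at P30 (105 CPM). It stood at 0.157 CPM in replicate 1 of that P14 group, and at 0.0948 and 0.136 CPM in replicates 1 and 3 of OIR at P30. Libraries of these groups were thus not all repeats of 1 sample. Contrasts of OIR at P17 with OIR at P30 also carry a sex-linked difference.

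The promoters of Atp2a3 and Casq2 are shown because these genes differed most at P14. Promoters of 6 of the 9 genes were found in the RefSeq table (GRCm38.p6, the mm10 build), and Atp2a2, Atp2b3 and Itpr1 were not matched. Each sequence is the 250 bases before the start of the gene, 5′ to 3′ on the gene's own strand, on mm10. Atp2a3 lies on the plus strand and its stretch is chr11:72960919-72961168. Casq2 lies on the plus strand and its stretch is chr3:102086165-102086414. Capitals mark a GCGTG read on the minus strand, which shares its letters with the core of the element bound by hypoxia-inducible factors, and a match to the motif of the muscle factor MEF2.
Atp2a3: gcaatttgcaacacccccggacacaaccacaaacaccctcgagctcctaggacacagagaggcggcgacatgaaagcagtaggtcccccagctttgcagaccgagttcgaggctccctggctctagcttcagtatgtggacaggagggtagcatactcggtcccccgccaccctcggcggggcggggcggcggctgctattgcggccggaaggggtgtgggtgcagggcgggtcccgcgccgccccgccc
Casq2: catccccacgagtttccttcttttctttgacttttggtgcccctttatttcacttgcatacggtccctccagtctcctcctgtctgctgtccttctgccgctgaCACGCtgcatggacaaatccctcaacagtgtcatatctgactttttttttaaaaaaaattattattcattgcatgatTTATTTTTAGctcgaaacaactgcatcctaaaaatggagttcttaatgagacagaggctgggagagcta
ACGTG and GCGTG were searched on both strands, as was the MEF2 motif. The Atp2a3 stretch held no match to any of them, was 66.8% G and C, more than 85.8% of promoters in the table, and held 20 CpG pairs. The Casq2 stretch was 41.6% G and C, more than 14.9% of promoters, held 5 CpG pairs, and had 1 GCGTG and 1 MEF2 match, which do not overlap. Of 32851 promoters of this length in the table, 16.6% held ACGTG, 28.2% held GCGTG and 2.9% held the MEF2 motif. Ryr2 held 1 ACGTG and 1 GCGTG, each of the listed Atp2b2 starts held 1 GCGTG, and those of Atp2b1 and Atp2b4 held neither. These matches describe letters only.

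Levels between genes are compared as CPM per kilobase of exon (GENCODE M21, mm10), and levels of one gene between groups as CPM scaled by the library factors of edgeR (TMM). In P17 controls Atp2a2 had the highest mean level, 56.3 CPM per kilobase. Atp2b2 at 11.8 and Atp2b1 at 11.6 CPM per kilobase came next, followed by Atp2b3 at 5.57 and Atp2b4 at 3.76. The remaining genes were low: Itpr1 stood at 1.60, Casq2 at 1.51, Atp2a3 at 1.39 and Ryr2 at 0.734 CPM per kilobase. Atp2a3 thus made up 2.41% of the summed level of Atp2a2 and Atp2a3 in P17 controls and 1.67% in OIR at P17. At P14 its share was 1.94% in controls and 0.568% in OIR.

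**Figure D1:**
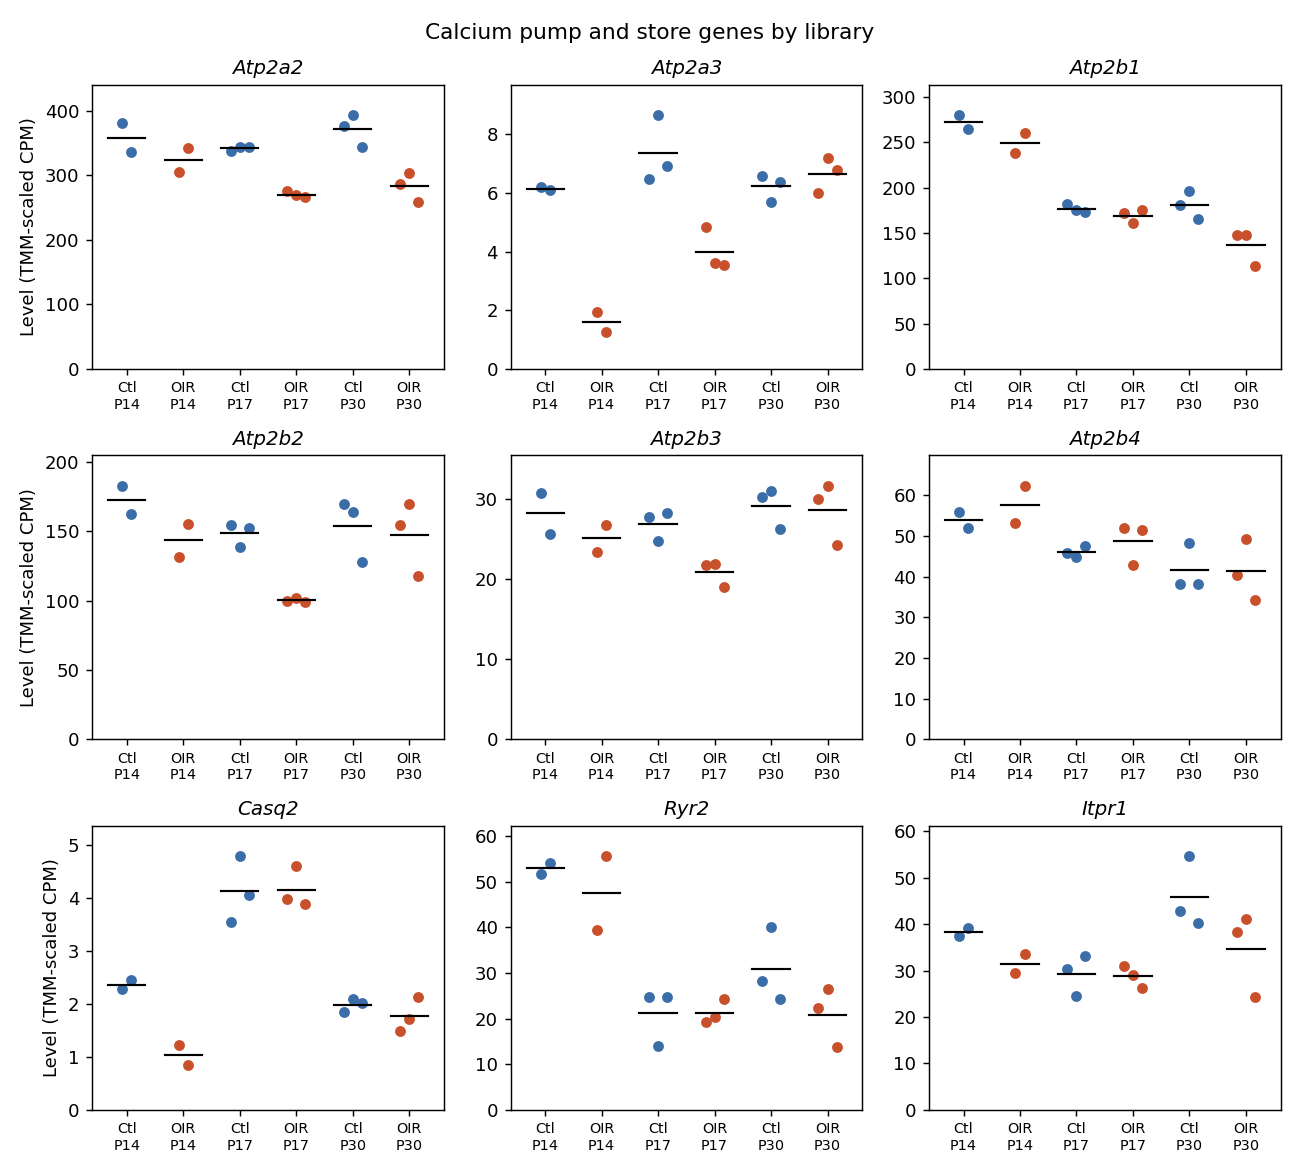
Level of each gene (vertical axis, TMM-scaled CPM, starting at 0) in every library of the 6 groups (horizontal axis), with control in blue, OIR in red and the group mean as a line. Atp2a3 stood at 1.93 and 1.25 CPM in OIR at P14 and reached 6.01 to 7.20 CPM in OIR at P30, while Casq2 was highest in both P17 groups.

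At P14 the store genes Atp2a3 and Casq2 differed most between OIR and control, and the remaining 7 genes differed little. Atp2a3 encodes SERCA3, a low-affinity store pump known from platelets, lymphocytes and epithelia (chr11:72961169-72993044, plus strand). Its level was 6.19 and 6.11 CPM in the control libraries and 1.93 and 1.25 CPM in the OIR libraries. Both OIR libraries were far below both controls, with 102 reads against 479 over the libraries of each group. The log2 fold change was -1.96, a change of -74.3%, and 89 of the 19905 genes tested had a lower value. Casq2 encodes calsequestrin 2, the calcium buffer of the store best known from heart muscle (chr3:102086415-102146514, plus strand). Its level was 2.27 and 2.45 CPM in the controls and 1.23 and 0.849 CPM in OIR, from 184 and 67 reads per group. The groups did not overlap, the log2 fold change was -1.19, a change of -56.2%, and 245 of the 19905 genes had a lower value. Atp2a3 and Casq2 were chosen for lower values in this contrast, so nothing is read from their ranks.

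The abundant pump Atp2a2 encodes SERCA2, the general store pump (chr5:122453513-122502225, minus strand). It had 381 and 336 CPM in P14 controls and 306 and 343 CPM in OIR, which overlap. The log2 fold changes of the other genes at P14 lay between -0.28 for Itpr1 and 0.10 for Atp2b4. For 5 of the 9 genes (Atp2a3, Atp2b1, Atp2b2, Casq2 and Itpr1) both OIR libraries were below both controls, which held for 23.4% of all genes tested. The choice of genes used this contrast, so nothing is read from that count. The median log2 fold change of the 9 genes was -0.17, beside -0.01 over all genes tested. Without OIR replicate 1 the log2 fold change was -2.30 for Atp2a3 and -1.47 for Casq2. Without OIR replicate 2 these values were -1.68 and -0.95.

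Several marker lists were read beside these values. The platelet list summed to 14.2 to 15.6 CPM in P14 controls and 13.5 to 15.99 CPM in OIR, with 1 of its 6 genes at 0 in both groups. Most of that sum was Gp1bb, at a mean of 12.7 and 12.0 CPM. The platelet chemokine Pf4 was very low, at a mean of 0.33 and 0.11 CPM, with a log2 fold change of -1.58. Itga2b went the other way, at 1.72 and 2.53 CPM with a log2 fold change of 0.56, and neither was called. The 16 striated muscle genes summed to 16.4 to 19.1 and 19.4 to 19.5 CPM. Tnnt2, a troponin subunit, was called higher in OIR, with mean levels of 0.59 and 4.21 CPM, while the median log2 fold change of the 15 genes tested was -0.31. The Müller glia list summed to 3249 to 3384 CPM in controls and 2744 to 2745 CPM in OIR, and 1 of its 7 genes was called lower. Bipolar sums were also lower, at 2047 to 2212 and 1891 to 2018 CPM. So were amacrine and horizontal sums (1033 to 1154 and 986.5 to 997.2 CPM) and ganglion sums (1378 to 1594 and 1236 to 1357 CPM). Endothelial and pericyte and smooth muscle sums overlapped. Those of rods, cones, microglia and macrophages, and red blood cells were higher. No gene of these other lists was called. The part of these cells in the Atp2a3 and Casq2 values was not tested.

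**Figure D2:**
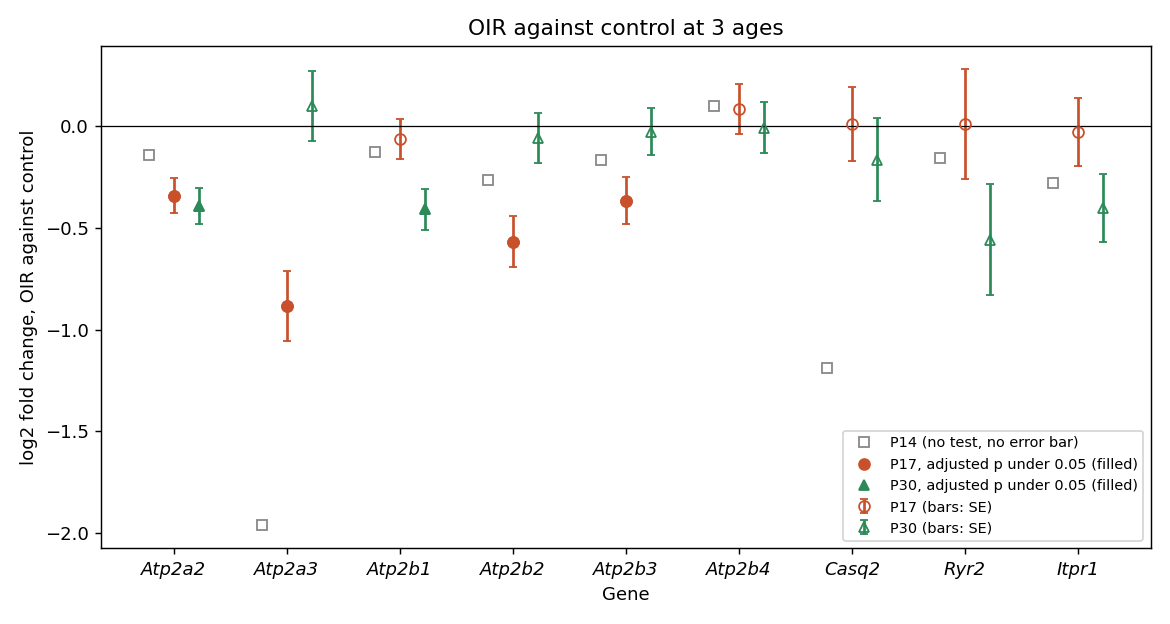
Log2 fold change of OIR against control (vertical axis) for each of the 9 genes (horizontal axis) at P14 (grey squares, no test), P17 (red circles) and P30 (green triangles), with bars for the standard error and filled symbols for an adjusted p under 0.05. Atp2a3 moves from -1.96 at P14 through -0.88 at P17 to 0.10 at P30, while Atp2a2 is filled at both P17 and P30.

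At P17 the levels of 4 pumps fell in OIR: Atp2a2 and Atp2a3 of the SERCA family and the PMCA genes Atp2b2 and Atp2b3. Calls were made at an adjusted p under 0.05 in edgeR's quasi-likelihood test, with Benjamini-Hochberg values taken across all 19905 genes, and 6.76% of those were called lower. All 4 calls were falls, although 7.81% of all genes were called higher. For 4 of the 9 genes, the same 4 pumps, each OIR library was below each control, which held for 16.6% of genes tested. The median log2 fold change of the 9 genes was -0.06, beside 0.00 over all genes.

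Atp2a3 fell most at P17. It stood at 6.48, 8.65 and 6.92 CPM in controls (mean 7.35 ± 1.15, SD, n = 3) and at 4.83, 3.60 and 3.54 CPM in OIR (3.99 ± 0.729, SD, n = 3). The highest OIR library was thus below the lowest control. The log2 fold change was -0.88 (SE 0.172, adjusted p = 0.00203 by edgeR's quasi-likelihood test with Benjamini-Hochberg adjustment). Atp2a2 stood at 339, 345 and 344 CPM in controls and at 275, 270 and 266 CPM in OIR. Libraries within each group were close together and the groups did not overlap. Its log2 fold change was -0.34 (SE 0.0876, adjusted p = 0.0132 by edgeR).

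Atp2b2 encodes PMCA2, a fast plasma membrane pump of neurons and hair cells (chr6:113743831-114042613, minus strand). Its level was 155, 139 and 152 CPM in P17 controls and 99.3, 102 and 99.0 CPM in OIR. The OIR libraries agreed within a few CPM and lay below every control. This was a log2 fold change of -0.57 (SE 0.126, adjusted p = 0.00499 by edgeR). Atp2b2 has 12612 bases of exon, and of the 1427 genes with 10000 or more 11.8% were called lower at P17, beside 6.76% of all genes. The part of length in this value was not tested. Atp2b3 encodes PMCA3, a pump found mainly in brain (chrX:73503086-73571005, plus strand). Its level was 27.7, 24.7 and 28.2 CPM in controls and 21.7, 21.8 and 18.9 CPM in OIR, again without overlap. Its log2 fold change was -0.37 (SE 0.116, adjusted p = 0.0402 by edgeR). Atp2b2 shares its locus with the antisense genes Gm15082 and Gm15083, and reads from the opposite strand cannot be told apart because the strand setting of the counting is not given.

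The other 5 genes did not pass at P17. Atp2b1 encodes PMCA1, the widespread plasma membrane pump (chr10:98914406-99026143, plus strand), and its log2 fold change was -0.06 with a 95% interval of -0.28 to 0.16. Atp2b4 encodes PMCA4 (chr1:133699457-133801041, minus strand), and its value was 0.08 with an interval of -0.19 to 0.36. Casq2 stood at 3.54, 4.78 and 4.05 CPM in controls and at 3.98, 4.60 and 3.88 CPM in OIR. The OIR libraries lay within the range of the controls, and the log2 fold change was 0.01 with an interval of -0.39 to 0.41. For the release channels the intervals were -0.59 to 0.61 for Ryr2 and -0.40 to 0.34 for Itpr1, and changes within those ranges remain compatible with the data.

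Several measures moved with OIR at P17. With the summed level of Y-linked genes as a covariate none of the 4 calls remained, with adjusted p-values from edgeR of 0.0801 for Atp2a3, 0.118 for Atp2b2, 0.295 for Atp2a2 and 0.444 for Atp2b3. The log2 fold changes in that fit were -0.98, -0.64, -0.34 and -0.35. The share of all genes called in that fit is not given, so the lost calls are not read as particular to these genes. Without both lens-rich OIR libraries Atp2a3 was still called at -1.04 (adjusted p = 0.0203 by edgeR), but Atp2b2 (adjusted p = 0.111), Atp2b3 (0.118) and Atp2a2 (0.166) were not, at -0.57, -0.49 and -0.35. Atp2a2 was not called without OIR replicate 3 at P17 (adjusted p = 0.0533 by edgeR). Without the count filter neither Atp2a2 (0.0682) nor Atp2b3 (0.0503) was called, and with library totals Atp2b3 was not (0.0663), all adjusted p-values from edgeR. Atp2b3 was not called without control replicate 1 (0.111) or 3 (0.121), without OIR replicate 1 (0.0660), 2 (0.0739) or 3 (0.169) at P17, or without control replicate 1 (0.0520) or 2 (0.0505) at P30, all adjusted p-values from edgeR.

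Markers of inner retinal neurons were lower in the same P17 libraries. The bipolar list summed to 1628 to 1721 CPM in controls and 1274 to 1313 CPM in OIR, with 7 of 9 genes called lower. For amacrine and horizontal cells the sums were 1004 to 1066 and 702 to 751 CPM, with 8 of 10 genes lower, and for ganglion cells 1719 to 1900 and 1229 to 1345 CPM, with 4 of 9 lower. The Müller glia list went from 4677 to 5394 CPM in controls to 4013 to 4544 CPM in OIR, with 4 of 7 lower, while the sums of the 8 rod genes overlapped, at 48360 to 69070 and 55380 to 57220 CPM. Other lists were higher in the same libraries: 6 of 8 endothelial genes, 7 of 9 pericyte and smooth muscle genes and 6 of 8 microglia and macrophage genes were called higher. Their sums were 296 to 344 CPM in controls and 378 to 485 CPM in OIR, 152 to 174 and 333 to 456 CPM, and 61.1 to 79.3 and 133 to 162 CPM. The part of any of these cells in the lower pump levels was not tested.

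At P30 the levels of the store pump Atp2a2 and the plasma membrane pump Atp2b1 fell in OIR, while Atp2a3, Atp2b2 and Atp2b3 did not pass. For 2 of the 9 genes, the called ones, each OIR library was below each control, which held for 14.3% of genes tested, and 3.63% of all genes were called lower. Both calls were falls, although 4.96% of all genes were called higher. The median log2 fold change of the 9 genes was -0.17, beside 0.01 over all genes.

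Atp2a2 stood at 377, 393 and 344 CPM in P30 controls (372 ± 25.0, SD, n = 3) and at 286, 303 and 260 CPM in OIR (283 ± 22.1, SD, n = 3). The highest OIR library was below the lowest control. The log2 fold change was -0.39 (SE 0.0877, adjusted p = 0.0156 by edgeR's quasi-likelihood test with Benjamini-Hochberg adjustment). Atp2b1 stood at 181, 197 and 166 CPM in controls and at 148, 148 and 114 CPM in OIR. OIR replicate 3 was lowest, and the groups did not overlap. Its log2 fold change was -0.41 (SE 0.0990, adjusted p = 0.0210 by edgeR). In a fit of the P30 groups alone neither gene was called (adjusted p = 0.0908 for Atp2a2 and 0.109 for Atp2b1 by edgeR). Both calls also ended without control replicate 1 (0.0524 and 0.0613) or control replicate 2 (0.0892 and 0.116), and that of Atp2b1 without OIR replicate 3 (log2 fold change -0.30, adjusted p = 0.0589 by edgeR).

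Atp2a3 had 6.58, 5.70 and 6.39 CPM in P30 controls and 6.01, 7.20 and 6.77 CPM in OIR. These ranges overlap, and the log2 fold change of 0.10 had a 95% interval of -0.29 to 0.48. Casq2 had 1.84, 2.08 and 2.01 CPM in controls and 1.49, 1.71 and 2.13 CPM in OIR, at a log2 fold change of -0.17 with an interval of -0.62 to 0.29. For Atp2b2 the interval was -0.34 to 0.22, for Atp2b3 -0.29 to 0.23 and for Atp2b4 -0.29 to 0.27.

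Several marker lists were higher in OIR at P30: by edgeR 5 of 8 microglia and macrophage genes, 3 of 8 endothelial genes, 3 of 9 bipolar genes and 2 of 7 cone genes were called higher. The endothelial sums were 158 to 173 CPM in controls and 273 to 289 CPM in OIR, those of microglia and macrophages 47.8 to 63.4 and 63.8 to 122 CPM, and those of cones 1665 to 1901 and 1986 to 2640 CPM. The bipolar sums overlapped, at 1475 to 1572 and 1473 to 1668 CPM. Müller glia sums were 5964 to 6379 CPM in controls and 6606 to 7458 CPM in OIR. Those of ganglion cells were 1441 to 1505 and 1591 to 1880 CPM, and 1 gene of each of these 2 lists was called higher. The part of these cells in the pump values was not tested.

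The release channels were lower on average at P30 without passing. Ryr2 encodes the ryanodine receptor of heart and brain (chr13:11553102-12106945, minus strand). Its level was 28.2, 40.1 and 24.2 CPM in controls and 22.3, 26.6 and 13.7 CPM in OIR, which overlap. The log2 fold change was -0.56 (SE 0.272, adjusted p = 0.210 by edgeR). Itpr1 encodes the main inositol trisphosphate receptor of neurons (chr6:108213096-108551109, plus strand). Its level was 42.8, 54.6 and 40.3 CPM in controls and 38.4, 41.1 and 24.3 CPM in OIR, with a log2 fold change of -0.40 (SE 0.167, adjusted p = 0.134 by edgeR). OIR replicate 3 was the low library for both channels. Without the filter on low counts both were called (adjusted p = 0.000237 for Ryr2 and 0.0112 for Itpr1 by edgeR). Itpr1 overlaps the antisense gene Gm44040, with the same limit on strand as for Atp2b2.

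Transcript length moved with these libraries. Atp2b1, Atp2b2, Atp2b4, Ryr2 and Itpr1 have 10000 bases of exon or more, as do 1427 of the genes tested. The median deviation of those genes from their own mean over all libraries was -0.46 (log2) in OIR replicate 3 at P30, -0.15 and -0.11 in the other OIR libraries and -0.16 to 0.01 in the controls. OIR replicate 3 was the lowest of its group for 7 of the 9 genes. At P30 9.46% of the long genes were called lower, beside 3.63% of all genes. The part of length in the Atp2b1, Ryr2 and Itpr1 values was not tested. At 6081 bases of exon Atp2a2 is not among the long genes.

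A test of the OIR effect at P30 against that at P17 passed for Atp2a3 and for none of the other 8 genes. Its log2 difference, P30 minus P17, was 0.98 (SE 0.244, adjusted p = 0.0183 by edgeR's quasi-likelihood test with Benjamini-Hochberg adjustment). Of all genes 5.45% had a higher effect at P30 by this test and 3.84% a lower one. For Atp2b2 the difference was 0.51 with a 95% interval of 0.12 to 0.90 (adjusted p = 0.0774), and for Atp2b3 0.34 with an interval of -0.02 to 0.71 (adjusted p = 0.198), both by edgeR. For Atp2b1 it was -0.35 (adjusted p = 0.126 by edgeR) and for Atp2a2 -0.05 with an interval of -0.33 to 0.22. Over the alternatives tried, single libraries left out included, the Atp2a3 difference lay between 0.85 and 1.17. Its call ended with the Y-linked covariate (adjusted p = 0.0526), without both lens-rich libraries (0.0556), and without replicate 2 of control at P17 (0.0516), OIR at P17 (0.0507) or control at P30 (0.0537), all by edgeR.

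Between P17 and P30 Casq2 had the largest change of the 9 genes in both conditions. It fell in controls from 4.12 ± 0.626 to 1.98 ± 0.123 CPM (SD over 3 libraries each), a log2 change of -1.06 (SE 0.191, adjusted p = 0.000576 by edgeR). In OIR it fell from 4.15 ± 0.389 to 1.78 ± 0.329 CPM (SD, n = 3 each), at -1.23 (SE 0.194, adjusted p = 7.51e-05 by edgeR). From P14 to P17 its mean level was 1.75 times as high in controls and 3.99 times in OIR, a description since P14 entered the choice of genes. Both conditions thus had the highest Casq2 level at P17, and neither control nor OIR libraries at P17 overlapped any other age.

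In controls Itpr1 was the other gene of the 9 called from P17 to P30. It rose from 30.4, 24.5 and 33.2 CPM to 42.8, 54.6 and 40.3 CPM, without overlap. This rise was 0.65 on the log2 scale (SE 0.167, adjusted p = 0.00861 by edgeR). Of all genes 14.9% rose and 13.4% fell between these control groups. This call ended with scaling by library totals (adjusted p = 0.101), with the lens share as a covariate (0.122) and without control replicate 2 at P30 (0.0509), all by edgeR. Library totals, which lowered the median of all genes here by 0.23, called falls of Atp2a3 (-0.47, adjusted p = 0.0383) and Atp2b4 (-0.38, adjusted p = 0.0445), and a fit without the count filter called a rise of Ryr2 (0.56, adjusted p = 7.81e-05), all by edgeR.

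In OIR 3 pumps rose from P17 to P30, where 21.5% of all genes rose and 21% fell. Xist was high in all 3 OIR libraries at P17 but only in replicate 2 at P30, so this contrast is not one of age alone. Atp2a3 rose by 0.74 (log2, SE 0.174, adjusted p = 0.00238), Atp2b2 by 0.56 (SE 0.126, adjusted p = 0.00167) and Atp2b3 by 0.46 (SE 0.116, adjusted p = 0.00413), all by edgeR. These are the genes that were below controls at P17 and not called at P30. Atp2b1 fell by 0.31 on the log2 scale (SE 0.0989, adjusted p = 0.0169 by edgeR). That call ended without OIR replicate 3 at P17 (adjusted p = 0.0569), without both lens-rich libraries (0.0633), in a fit of these groups alone (0.0669) and with the Y-linked covariate (0.0838), all by edgeR. Scaling by library totals shifted the median of all genes by -0.28 in OIR and -0.23 in controls, and under it Atp2b2 (adjusted p = 0.102) and Atp2b3 (0.252) were not called by edgeR, while a fall of Atp2b4 was (-0.51, adjusted p = 0.00566). Without both lens-rich libraries the Atp2b2 call ended as well (adjusted p = 0.0622 by edgeR).

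Ryr2, Atp2b1 and Atp2b4 were highest at P14, a description. Ryr2 had 51.7 and 54.2 CPM in P14 controls and 39.4 and 55.6 CPM in OIR. At P17 it had 24.8, 14.0 and 24.7 CPM in controls and 19.2, 20.3 and 24.3 CPM in OIR. The mean at P17 was 0.399 times that at P14 in controls and 0.447 times in OIR, with no overlap in either. For Atp2b1 these ratios were 0.65 and 0.678, and for Atp2b4 0.852 and 0.844. The long genes as a class also stood 0.22 to 0.43 (log2) above their own mean in the P14 libraries, and the part of length in these ratios was not tested.

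Ordered by mean level, Atp2a3 ran from 1.59 CPM in OIR at P14 through 3.99 in OIR at P17 to between 6.15 and 7.35 CPM in the remaining 4 groups. The lowest 2 groups did not overlap each other or any other group, while neighbours among the remaining 4 overlapped. Atp2b2 and Atp2b3 shared the shape of a single low group: OIR at P17, at 100.1 and 20.8 CPM, did not overlap any other group. Atp2a2 had OIR at P17 and P30 lowest, at 270.2 and 283 CPM, which overlapped each other but no other group. Atp2b4 ran from 41.3 CPM in OIR at P30 to 57.7 CPM in OIR at P14, and its control and OIR groups overlapped at each age.

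**Figure D3:**
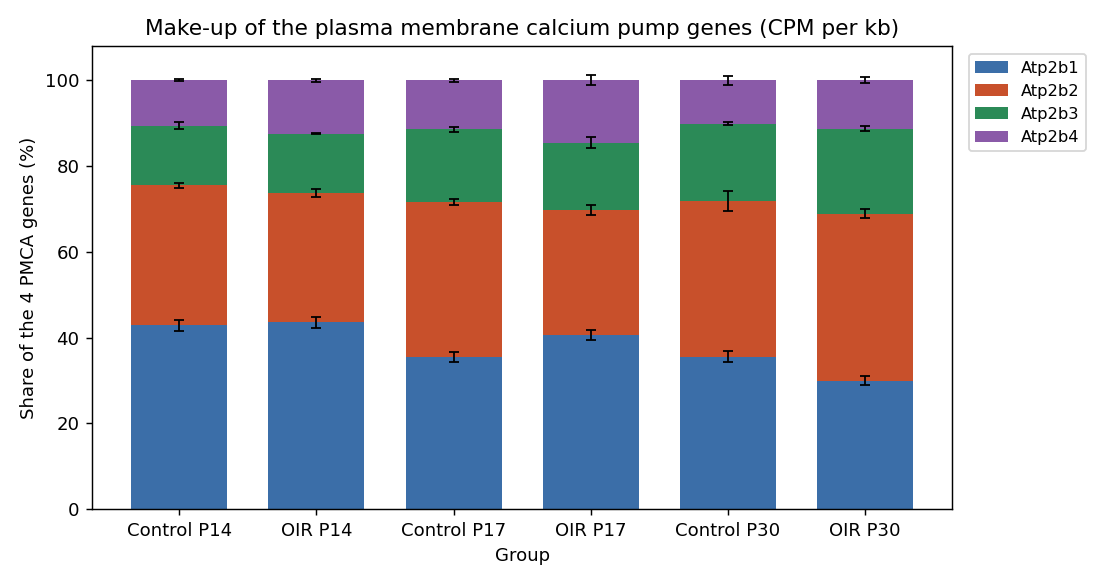
Share of each PMCA gene in the summed level of the 4 (vertical axis, percent of CPM per kilobase, from 0) in each of the 6 groups (horizontal axis), as the mean with its SD over libraries. The Atp2b1 band is wider in OIR than in control at P17, 40.7% against 35.6%, and narrower at P30, 30.0% against 35.6%.

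The make-up of the PMCA family was described by the share of each gene. Per kilobase, the share of Atp2b2 in the 4 PMCA genes was 36.0% in P17 controls and 29.0% in OIR, and that of Atp2b1 was 35.6% and 40.7%. At P30 the Atp2b1 share was 35.6% in controls and 30.0% in OIR, and the Atp2b2 share 36.3% and 38.9%. The summed level of Atp2a2 and Atp2a3 was 57.7 CPM per kilobase in P17 controls and 45.2 in OIR, and 62.3 and 47.8 at P30. The summed PMCA level was 32.7 and 27.4 CPM per kilobase at P17 and 33.5 and 30.0 at P30. In a family of 14 two-sided exact permutation tests p was 0.1 (adjusted 0.14) for each of these except the PMCA sum at P30, with p = 0.4, and the Atp2b2 share at P30, with p = 0.2. With 3 libraries against 3, 0.1 is the smallest p such a test can give.

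Genes with the most similar pattern over the 16 libraries were looked up among 14408 genes by Pearson correlation of log2(CPM + 0.5), as a description. For Atp2a3 these were Ogfrl1 (r = 0.909), Aqp4, the water channel of Müller glia (0.857), and Fam19a4 (0.848). Aqp4 had 61.0 CPM in P14 controls and 32.8 in OIR, 87.8 and 66.1 at P17, and 79.8 and 80.9 at P30. Like Atp2a3 it was lowest in OIR at P14 and close to control at P30. So were Ogfrl1 (64.5 and 47.7 CPM at P14, 69.1 and 72.3 at P30) and Fam19a4 (5.84 and 3.55, 7.81 and 7.74), in control and OIR. Aqp4 was the only Müller glia gene called at P14, at a log2 fold change of -0.90. The others lay at -0.49 for Apoe, -0.43 for Glul, -0.40 for Kcnj10, -0.07 for Rlbp1, -0.04 for Dkk3 and 0.09 for Slc1a3. The P14 libraries that entered the choice of genes are among the 16. For Casq2 the most similar genes were Actr10, a dynactin subunit (r = 0.926), Capza2, an actin-capping subunit (0.921), and Glrx, a glutaredoxin (0.916). Actr10 had 90.7 and 79.7 CPM at P14, 129 and 129 at P17, and 103 and 98.1 at P30, in control and OIR. The libraries share age, depth and lens content, which also shape such correlations.

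**Figure D4:**
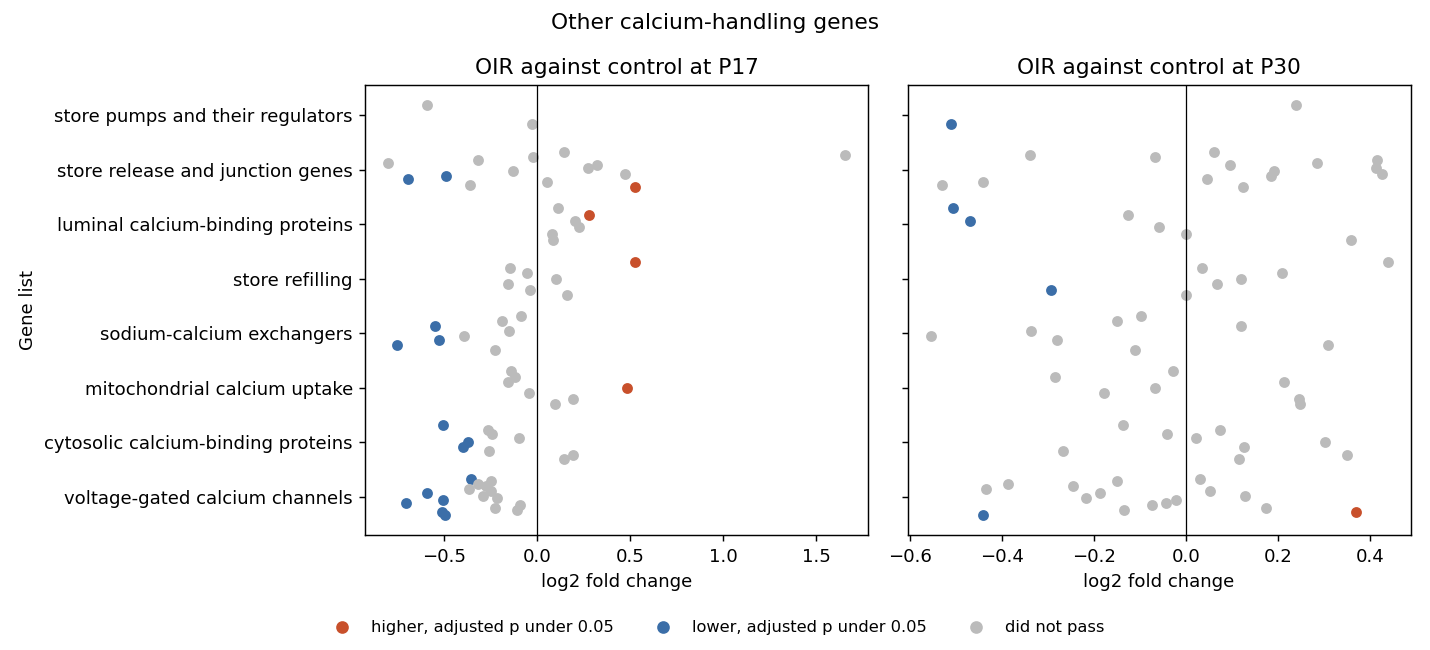
Log2 fold change of OIR against control (horizontal axes) for 69 other calcium-handling genes in 8 lists (vertical axis), at P17 on the left and at P30 on the right, each point 1 gene, coloured where edgeR's adjusted p was under 0.05. At P17 14 genes are lower and 4 higher, mostly lower in the voltage-gated channels, exchangers and cytosolic binding proteins, and at P30 5 are lower and 1 higher.

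The rest of the calcium pathway was read from 8 lists of 75 genes, of which 69 were tested. At P14 edgeR called none of them in either direction, where 0.723% of all genes were called higher and 0.0955% lower. DESeq2 and limma-voom also called none. By edgeR 7 of the 69 had an unadjusted p under 0.05. The share of all genes at that unadjusted threshold is not given, so nothing is read from that count. The median log2 fold change of the lists at P14 was -0.09, beside -0.01 over all genes.

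At P17 4 of the 69 rose and 14 fell, where 7.81% of all genes were called higher and 6.76% lower. The median log2 fold change was -0.15 beside 0.00 over all genes. Most of those that fell came from 2 lists: 6 of 16 voltage-gated channel genes, auxiliary subunits included, and 3 of 8 sodium-calcium exchangers. Slc8a2, a sodium-calcium exchanger of neurons, stood at 32.8 ± 3.32 CPM in controls and fell to 19.4 ± 1.74 CPM in OIR (SD over 3 libraries each), with a log2 value of -0.76 (SE 0.101, adjusted p = 9.61e-05 by edgeR). Cacna2d3 and Cacna2d2, auxiliary subunits of voltage-gated channels, fell by 0.71 (SE 0.10, adjusted p = 0.000152) and 0.51 (SE 0.0853, adjusted p = 0.000628) on the log2 scale by edgeR. Of 9 cytosolic calcium-binding proteins 3 fell.

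Among the 14 store release and junction genes at P17, 1 rose and 2 fell. Jph4, a junctophilin that ties the store to the plasma membrane in neurons, fell by 0.70 on the log2 scale (SE 0.109, adjusted p = 0.000368 by edgeR). Of the luminal binding proteins 1 of 6 rose, of the store refilling genes 1 of 7 and of the mitochondrial uptake genes 1 of 7. Both other store pump genes tested, Atp2a1 and Atp2c1, did not pass. With the Y-linked covariate 3 of the 69 genes were called at P17. The share of all genes called in that fit is not given, so nothing about these genes is read from that count. The lower inner neuron markers given above stood beside these falls too.

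At P30 1 of the 69 rose and 5 fell, with a median log2 fold change of 0.00 beside 0.01. Beside them 4.96% of all genes were called higher and 3.63% lower. Atp2c1, the calcium and manganese pump of the Golgi, stood at 105 ± 2.77 CPM in controls and fell to 73.8 ± 13.4 CPM in OIR (SD over 3 libraries each), with a log2 value of -0.51 (SE 0.117, adjusted p = 0.0175 by edgeR). Calr and Canx, calcium-binding chaperones of the endoplasmic reticulum, fell by 0.51 (SE 0.126, adjusted p = 0.0234) and 0.47 (SE 0.113, adjusted p = 0.0207) on the log2 scale by edgeR. Cacnb4, an auxiliary subunit of voltage-gated channels, fell by 0.44 (SE 0.110, adjusted p = 0.0234 by edgeR). In a fit of the P30 groups alone none of the 69 genes was called by edgeR.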

How the data were processed

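RNA from freshly dissected retina of 16 samples was sequenced as poly(A)-selected RNA on an Ion Proton, per the labels' protocols. Per the submitters' processing notes and the labels' protocols, Torrent Suite 5.4.0 aligned reads to mm10 with STAR and then Bowtie2, and HTSeq counted them. The deposited values are raw counts per gene symbol, 43280 in each library, which the authors did not normalize. The sources used here do not give the other versions, the annotation release or the strand setting.

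Groups came from the sample titles. Counts were scaled by TMM and fitted with edgeR 4.0.16 (limma 3.58.1, R 4.3.3) after filterByExpr (minimum count 10, minimum total 15), which left 19905 genes. The robust quasi-likelihood fit covered all 16 libraries and left 10 residual degrees of freedom. Tests were adjusted by Benjamini-Hochberg over all genes tested, with calls made below an adjusted p of 0.05. The standard error (SE) is the size of the log2 fold change over the square root of F, and 95% intervals use 10 degrees of freedom. Wilson intervals cover counting error only. CPM per kilobase uses GENCODE M21 exon lengths matched by symbol. The steps were tested on simulated data.

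The 9 genes, the pathway and marker lists and the tests were chosen with earlier results of these data known. Named were all 9 genes, up to 4 called pathway genes per age with the smallest p, the 3 genes most like Atp2a3 and Casq2, and Xist and Ddx3y. Atp2a1, Gp1bb, Pf4, Itga2b, Tnnt2 and the Müller glia genes other than Aqp4 were named outside this rule, after their values were seen. Alternatives were limma-voom, DESeq2 1.42.0, RLE scaling, library totals, no count filter, a filter of 50 counts in 2 libraries, the replicate number as a block, covariates for lens share and Y-linked genes, removal of 19 lens genes, fits of only the groups compared, and each library left out in turn. The fit without both lens-rich OIR libraries at P17 was chosen after seeing the data.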

Additional observations from a re-analysis of the deposited data

Results flagged for a closer look

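By edgeR's quasi-likelihood test of the difference with Benjamini-Hochberg adjustment, the effect of OIR differed between P17 and P30 in 7 of the genes named. Of the pathway genes read in this test Atp2c1 and Cacnb4 did not pass. Nor did any pump, store or release channel gene described here other than Atp2a3. Of all genes 5.45% had a higher effect at P30 by this test and 3.84% a lower one. The log2 difference, P30 minus P17, was 0.98 (SE 0.244, adjusted p = 0.0183) for the store pump Atp2a3, 1.06 (SE 0.143, adjusted p = 0.000449) for the exchanger Slc8a2 and 0.74 (SE 0.154, adjusted p = 0.00745) for the junctophilin Jph4. It was 0.66 (SE 0.141, adjusted p = 0.00830) for Cacna2d3 and 0.49 (SE 0.121, adjusted p = 0.0179) for Cacna2d2, both channel subunits. These 5 genes had fallen in OIR at P17. For the store chaperones Calr and Canx, which had fallen at P30, the difference was -0.62 (SE 0.178, adjusted p = 0.0367) and -0.67 (SE 0.159, adjusted p = 0.0147). Slc8a2, Jph4, Cacna2d3 and Cacna2d2 were named for a small p at P17, and Calr and Canx at P30, so their differences are not independent of that choice. Within P17, OIR cannot be told apart from the sex-linked difference given above, so all of these differences between ages carry it too. As given above, the Atp2a3 call ended with the Y-linked covariate and without some single libraries. For the pathway genes the difference under the alternatives is not given. Groups of 2 or 3 libraries are too small for a test of single outlying libraries.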

How the results depend on the processing

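Counts of called genes below are of the 9 genes unless pathway genes are named, with the reported fit first. Shares of all genes called are given above for the reported fit only, so changes in these counts are not read as particular to these genes. The fit without both lens-rich libraries keeps only replicate 3 of OIR at P17. OIR against control at P17 gave 4 calls, 2 without the count filter, 0 with the Y-linked covariate and 1 without both lens-rich libraries, and 2 to 4 with single libraries left out. At P30 it gave 2 calls, 4 without the count filter and 0 in a fit of the P30 groups alone, and 0 to 2 with single libraries left out. The difference between these ages gave 1 call, 3 without the count filter, 2 by DESeq2, 0 with the Y-linked covariate or without both lens-rich libraries, and 0 to 2 with single libraries left out. Control P30 against P17 gave 2 calls, 3 with library totals or without the count filter, 1 with the lens covariate, and 1 to 2 with single libraries left out. OIR P30 against P17 gave 5 calls, 3 without both lens-rich libraries, and 4 to 6 with single libraries left out. Pathway genes called at P14 were 0, and 1 without the count filter. At P17 they were 18, 3 with the Y-linked covariate and 7 without both lens-rich libraries, and 13 to 21 with single libraries left out. At P30 they were 6, 10 by DESeq2 and 0 in a fit of the P30 groups alone, and 0 to 9 with single libraries left out. The P14 median of -0.17 ran from -0.39 to -0.075 with single libraries left out. The cause of these shifts was not tested.

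Values that changed sign were not past the threshold in the reported fit, or had no test at P14. Ryr2 at P17 was -0.00088 by RLE, -0.0020 by DESeq2, -0.00066 with the replicate block and -0.28 with the Y-linked covariate. Library totals gave, for control P30 against P17, -0.11 for Atp2a2, -0.20 for Atp2b1, -0.19 for Atp2b2 and -0.12 for Atp2b3, and for OIR P30 against P17 -0.21 for Atp2a2. The stricter filter gave 0.0038 for Atp2b4 at P30. The lens covariate gave -0.091 for Casq2 at P17, 0.034 for the Atp2a2 difference, -0.020 and -0.047 for Atp2b2 and Atp2b3 in controls with age, and 0.020 for Ryr2 in OIR with age. The Y-linked covariate gave -0.072 for Atp2b4 and -0.045 for Casq2 at P17, 0.0015 for the Atp2b4 difference and 0.13 for Ryr2 in OIR with age. Without both lens-rich libraries Casq2 at P17 was -0.076. With single libraries left out the ranges that crossed 0 were, at P14, -0.43 to 0.069 for Ryr2 and -0.030 to 0.21 for Atp2b4, and at P17 -0.091 to 0.13 for Casq2, -0.22 to 0.14 for Ryr2 and -0.15 to 0.067 for Itpr1. At P30 they were -0.18 to 0.074 for Atp2b2, -0.11 to 0.072 for Atp2b3 and -0.15 to 0.11 for Atp2b4. The Atp2b4 difference ran from -0.24 to 0.031. With age the ranges were -0.029 to 0.094 for Atp2b1 and -0.026 to 0.17 for Atp2b2 in controls, and -0.23 to 0.17 for Ryr2 in OIR.

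Same-numbered libraries showed no clear pairing, with correlations of their deviations from -0.388 to 0.137 over 8 pairs. Deviations from means of 2 or 3 libraries are not independent, so this check cannot exclude a pairing. The replicate block gave 4, 2, 1, 2 and 5 calls of the 9 genes in the comparisons above. Depth limits Casq2 and Atp2a3 most, which had 67 and 102 reads over both OIR libraries at P14.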
